A study of Homo sapiens with 15 samples.

Results

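Expression of 10 amino acid transporter genes, SLC7A5, SLC3A2, SLC7A11, SLC1A5, SLC1A4, SLC38A1, SLC38A2, SLC7A1, SLC3A1 and SLC7A7, was followed in MDA-MB-231 cells in which the transcriptional corepressor CtBP2 was silenced or targeted by a small molecule. The genes were chosen by name, with earlier results of these data known, and were read by 17 probes. They are 10 of 30987 genes on the arrays, counting each distinct name as a gene. Of these names 17529 are current gene symbols. MDA-MB-231 is a human triple-negative breast cancer cell line of mesenchymal appearance. Total RNA was measured on 15 two-colour arrays, 5 biological replicates for each of 3 treatments. In the first treatment (shCtBP2) the cells carried stable RNA interference of CtBP2; the methods describe puromycin selection and name no single clone. In the others the cells received HIPP (sodium 2-hydroxyimino-3-phenylpropanoate) or P4 (sodium 2-hydrazone-3-phenylpropanoate), described as small-molecule CtBP2 inhibitors, and were collected at 24 h. The methods state a dose of each molecule for counting cells over time, the HIPP dose being the higher, but none for the arrays, so HIPP and P4 are compared at the same time but at unstated doses. On every array the treated RNA carried Cy5 and control RNA carried Cy3. The labels give untreated MDA-MB-231 cells as the control of all 15 arrays, whereas the paper compares shCtBP2 cells with cells carrying a scrambled shRNA. The sources thus disagree on the control of the shCtBP2 arrays, and it is not settled whether those ratios also hold what the shRNA vector and its selection do to the cells. No dye was swapped, so in a ratio against control the dye and the treatment cannot be told apart; the dyes were placed alike in all treatments. Values are log2 ratios of treated over control signal, where 1 is a doubling and -1 a halving of signal, given as mean ± SD over arrays.

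Amino acids cross the plasma membrane through solute carriers. SLC7A5 (LAT1) is the light chain of an exchanger that brings in leucine and other large neutral amino acids, and SLC7A11 (xCT) is the light chain of the cystine/glutamate exchanger that supplies cysteine for glutathione. Both are held at the membrane by the same heavy chain, SLC3A2 (CD98). SLC1A5 (ASCT2) carries glutamine, SLC1A4 (ASCT1) serine, alanine and cysteine, SLC38A1 and SLC38A2 (SNAT1 and SNAT2) small neutral amino acids with sodium, and SLC7A1 arginine and lysine. SLC3A1 (rBAT) is the heavy chain of the cystine and dibasic amino acid exchanger of kidney and intestine, and SLC7A7 (y+LAT1) is another light chain that pairs with SLC3A2. Several of these genes are known targets of ATF4, the transcription factor that is made when cells lack amino acids or carry unfolded proteins, and SLC7A11 is also a known target of the oxidative stress factor NRF2.

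The arrays, the knockdown and the cell type were checked first. Between 64.9 and 81.0% of the spots were well above background in a channel, 78 to 265 spots per array were left out as non-uniform or outlying, and no gene spot was saturated. Correlations of the log2 ratios between arrays ran from -0.0185 to 0.755. All 6 markers of this line (VIM, CD44, EGFR, AXL, CAV1 and MSN) were well above background on all arrays, CDH1 and PGR, 2 of 7 luminal markers, were above it on none, as were PTPRC and LYZ, 2 of 5 leucocyte markers; EPCAM, ERBB2, FOXA1, GATA3 and CD14 were above it on all arrays. CTBP2 itself averaged -0.41 ± 0.11 in shCtBP2 cells, was lower on 5 of 5 arrays and did not pass the test (adjusted p = 0.0595). With HIPP it rose by 0.57 ± 0.36 (adjusted p = 0.00256) and with P4 it averaged 0.17 ± 0.35 (adjusted p = 0.344). CTBP1 did not pass in any treatment. For the silenced cells the paper reports less CtBP2 mRNA by real-time PCR and less CtBP2 protein by western blot than in scrambled control cells.

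The response element that ATF4 binds has the core TGATGNAAN, so this core was searched on either strand in the RefSeq promoter windows (GRCh38.p14, 250 bases before to 50 after a transcript's start). The windows of 8 of the genes were in the table, and SLC7A11 and SLC3A1 were not. It was found in 5 of the 16 windows of these genes, 31.2%, and in 1268 of all 35116 windows, 3.61%. Counted by gene, 5 of the 8 genes, 62.5%, had it in at least 1 window, against 1215 of 27305 genes, 4.45%. Many genes have several start sites and thus several windows, and a match describes letters in a window, not a bound site. The 5 matches are printed 5′ to 3′ on the gene's own strand, with the 9 letters of the core in capitals and up to 10 bases on each side.
SLC3A2, chr11:62881725-62881748, plus strand: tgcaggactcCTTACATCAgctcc
SLC1A5, chr19:46784893-46784921, minus strand: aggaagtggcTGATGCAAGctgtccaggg
SLC1A4, chr2:64989381-64989409, plus strand: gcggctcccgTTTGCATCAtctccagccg
SLC38A1, chr12:46266502-46266530, minus strand: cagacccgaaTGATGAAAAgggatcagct
SLC7A1, chr13:29595663-29595691, minus strand: ggcgcactgcTGATGAAACctggcgccgg
In SLC3A2 and SLC1A4 the core reads on the opposite strand, as TGATGTAAG and TGATGCAAA. The match lay 89 to 97 bases before a start of SLC1A5, at a start of SLC1A4 and of SLC38A1, and within the first 45 transcribed bases of SLC3A2 and SLC7A1. No window of SLC7A5, SLC38A2 or SLC7A7 held these letters.

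With both small molecules most of the transporter genes rose, whereas in shCtBP2 cells SLC7A7 alone passed the test (with the replicate number as a block SLC3A1 passed too, as lower). A gene passed when its limma test of the ratio against 0 had an adjusted p under 0.05, and was up- or down-regulated past a threshold when it also changed at least 1.5-fold in shCtBP2 cells, 2.5-fold with HIPP or 1.8-fold with P4, thresholds taken from the study's methods. With HIPP, 8 of the 9 genes tested were higher and 1 was lower. The 8 include SLC38A2, whose probes went opposite ways, and SLC38A1 was left out there by the filter on genes that vary little. Of all 27578 genes tested with HIPP, 24.9% were higher and 23.9% were lower at any fold change. With P4, 9 of 10 were higher and 1 was lower, where 17.1% and 14.9% of all genes were. With slide as a fixed block SLC7A11, SLC1A5, SLC1A4, SLC38A1 and SLC38A2 no longer passed with P4, nor did SLC7A7 in shCtBP2 cells. In shCtBP2 cells 1 of 9 was higher and 0 were lower by limma, where 6.58% and 6.95% of all genes were (2 were lower at an unadjusted p under 0.05, and 0 by the Student's test of the methods); SLC38A2 was left out there by the same filter. By that Student's test, run on the 2 channels as separate groups, 4 genes rather than 8 were higher with HIPP, without SLC7A11, SLC1A5, SLC38A2 and SLC7A1, and 6 rather than 9 with P4, without SLC1A5, SLC38A1 and SLC38A2. Past the fold-change thresholds, 3 genes were up-regulated and 1 was down-regulated with HIPP (background 3.43% and 3.62%), 5 and 1 with P4 (4.29% and 4.17%), and 1 and 0 in shCtBP2 cells (3.34% and 3.23%). These fold counts rest in part on dim signals: the gene up-regulated in shCtBP2 cells was SLC7A7, which is also among those up-regulated with HIPP and P4, and the gene down-regulated with both molecules was SLC3A1. For SLC7A7 the size is not measured, and for SLC3A1 it is uncertain, so neither is shown to be past a threshold. The median log2 ratio of the genes tested was 0.83 with HIPP, 0.90 with P4 and -0.21 in shCtBP2 cells, beside medians over all genes of 0.081, 0.11 and 0.038. These genes and the lists below were chosen with earlier results of these data known. Their counts beside the shares of all genes are therefore a description.

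**Figure D1:**
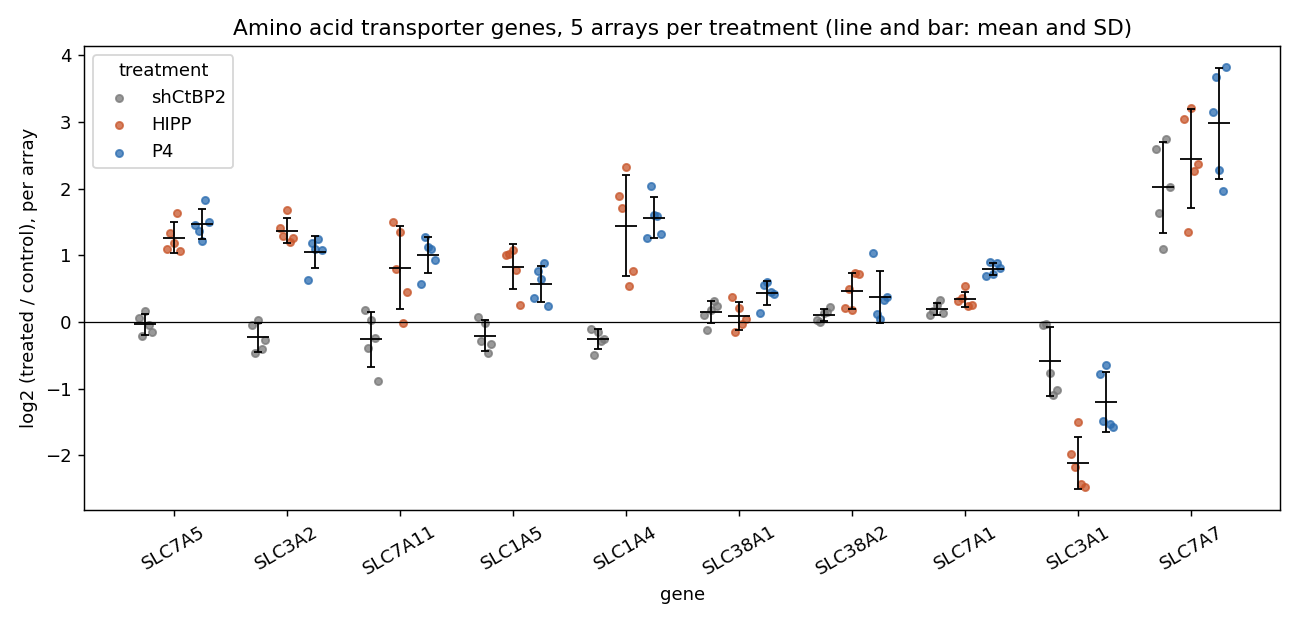
Log2 ratio of treated over control signal on each array (vertical axis) for the 10 genes (horizontal axis), coloured by treatment, with mean and SD over 5 arrays. SLC7A5, SLC3A2 and SLC1A4 were above 0 on all HIPP and P4 arrays and near or below 0 in shCtBP2 cells, SLC3A1 was below 0 on all 15 arrays, and SLC7A7 was above 0 on all 15.

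Both chains of the large neutral amino acid exchanger rose with the small molecules. SLC7A5 gave log2 ratios of 1.10, 1.34, 1.18, 1.64 and 1.07 on HIPP replicates 1 to 5 and of 1.45, 1.37, 1.22, 1.83 and 1.5 on P4 replicates 1 to 5. In shCtBP2 cells the values were 0.061, -0.22, 0.16, -0.042 and -0.14. The lowest HIPP or P4 array lay far above the highest shCtBP2 array. On average SLC7A5 rose 2.40-fold with HIPP (1.27 ± 0.23, adjusted p = 2e-07), which stayed under the HIPP threshold of 2.5, and 2.78-fold with P4 (1.47 ± 0.23, adjusted p = 3.76e-07). Its mean in shCtBP2 cells was -0.036 ± 0.15 (adjusted p = 0.851), with a 95% interval of -0.26 to 0.18. The 2 probes of SLC7A5 were above 0 on every HIPP and P4 array and averaged 1.31 and 1.22 with HIPP and 1.22 and 1.73 with P4. They differed on single arrays, most on P4 replicate 1, at 0.75 for A_23_P3792 and 2.15 for A_24_P335620.

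SLC3A2, the shared heavy chain, gave 1.42, 1.29, 1.68, 1.19 and 1.26 with HIPP and 0.63, 1.19, 1.09, 1.24 and 1.08 with P4. Its shCtBP2 values were -0.041, -0.46, 0.032, -0.41 and -0.26, and they did not overlap those of either small molecule. The gene rose 2.58-fold with HIPP (1.37 ± 0.19, adjusted p = 1.35e-07) and 2.06-fold with P4 (1.05 ± 0.24, adjusted p = 9.39e-06). The HIPP value lay just past the threshold of 2.5-fold, and without HIPP replicate 3 it was 1.29 on the log2 scale, under that threshold. In shCtBP2 cells it averaged -0.23 ± 0.22 (adjusted p = 0.173). The probes of SLC3A2 parted on some arrays: A_23_P75811 read 0.21 on P4 replicate 1 and 0.72 and 0.84 on HIPP replicates 4 and 5, where the brighter A_23_P87216 read 1.05, 1.67 and 1.68.

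The cystine/glutamate exchanger gene SLC7A11 rose as well, with more spread between arrays and between probes. Its log2 ratios were 1.5, 0.80, 1.35, -0.010 and 0.44 with HIPP, 0.57, 1.27, 1.13, 1.09 and 0.93 with P4, and 0.18, -0.40, 0.032, -0.24 and -0.89 in shCtBP2 cells. The P4 arrays lay above all shCtBP2 arrays, while 1 of the HIPP arrays fell among them. The means were 0.82 ± 0.63 with HIPP (adjusted p = 0.00307, higher on 4 of 5 arrays), 1.00 ± 0.27 with P4 (adjusted p = 0.00154) and -0.26 ± 0.42 in shCtBP2 cells (adjusted p = 0.421). The 2 low HIPP arrays were those on slide 3, where the mean was 0.22, against 1.21 for the 3 on slide 2; the part of the slide in this was not tested. With a slide term the P4 value was fitted over all 4 slides, which include slides with no P4 array. It was then 0.39 (adjusted p = 0.422), below every P4 array.

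The neutral amino acid exchangers of the SLC1 family rose with both molecules. SLC1A4 gave 1.89, 1.71, 2.33, 0.54 and 0.76 with HIPP, 1.26, 2.05, 1.61, 1.60 and 1.32 with P4, and values from -0.50 to -0.11 in shCtBP2 cells. All HIPP and P4 arrays were above all shCtBP2 arrays, and the 2 lowest HIPP arrays were again those on slide 3. As the mean of a bright and a dim probe it rose by 1.45 ± 0.76 with HIPP (adjusted p = 3.93e-05) and by 1.57 ± 0.31 with P4 (adjusted p = 7.49e-05), where the bright probe alone gave 2.41 and 1.97; it averaged -0.26 ± 0.15 in shCtBP2 cells (adjusted p = 0.453). Without HIPP replicate 3 the HIPP mean was 1.23, under the threshold. With a slide term the P4 value fitted over all slides was 0.75 (adjusted p = 0.07), below every P4 array.

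SLC1A5, the glutamine carrier, rose less. Its values were 1.00, 1.01, 1.09, 0.78 and 0.26 with HIPP, 0.36, 0.76, 0.64, 0.88 and 0.24 with P4, and 0.078, -0.28, -0.019, -0.47 and -0.33 in shCtBP2 cells. Every HIPP and P4 array exceeded every shCtBP2 array. The gene rose 1.77-fold with HIPP (0.83 ± 0.34, adjusted p = 9.2e-05) and 1.49-fold with P4 (0.58 ± 0.27, adjusted p = 0.00369), neither past the thresholds. In shCtBP2 cells it averaged -0.21 ± 0.23 (adjusted p = 0.323). With a slide term the P4 value fitted over all slides, also those with no P4 array, was 0.047 (adjusted p = 0.902), below every P4 array.

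SLC7A1, the arginine and lysine carrier, was higher with P4 than with HIPP. It gave 0.31, 0.35, 0.53, 0.24 and 0.26 with HIPP, 0.69, 0.89, 0.73, 0.88 and 0.80 with P4, and 0.098, 0.17, 0.25, 0.33 and 0.14 in shCtBP2 cells. All 5 P4 arrays lay above all arrays of the other treatments, whereas HIPP and shCtBP2 overlapped. This holds for the mean of its 2 probes, which ran from 0.22 to 1.07 (A_23_P117242) and from 0.62 to 1.19 (A_24_P253251) over the P4 arrays; A_23_P117242 overlapped between P4 and HIPP, where it reached 0.68. The mean with P4 was 0.80 ± 0.091, or 1.74-fold, just under the 1.8-fold threshold (adjusted p = 3.41e-06). With HIPP it was 0.34 ± 0.12 (adjusted p = 0.00142), and in shCtBP2 cells 0.20 ± 0.094 (adjusted p = 0.0886). Most P4 arrays lay on a slide with no HIPP array, and with a slide term HIPP minus P4 was -0.40 and did not pass (adjusted p = 0.409).

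The small neutral amino acid carriers SLC38A1 and SLC38A2 passed the test with P4. SLC38A1 rose 1.35-fold with P4 (0.43 ± 0.18, adjusted p = 0.00372), with values from 0.13 to 0.60 on 5 of 5 arrays. With HIPP it averaged 0.089 ± 0.21 and was not tested, and in shCtBP2 cells it averaged 0.15 ± 0.17 (adjusted p = 0.349). SLC38A2 averaged 0.47 ± 0.27 with HIPP (adjusted p = 0.00715), a mean of probes that went opposite ways there, 0.38 ± 0.39 with P4 (adjusted p = 0.034) and 0.11 ± 0.089 in shCtBP2 cells. P4 replicate 1, at 1.04, stood above the other P4 arrays, which ran from 0.048 to 0.37, and without it the P4 mean of SLC38A2 was 0.22 (adjusted p = 0.131). With a slide term the P4 values fitted over all slides were 0.42 for SLC38A1 and 0.63 for SLC38A2 and neither passed (adjusted p = 0.163 and 0.118).

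Probes also differed for SLC38A2, SLC7A11 and SLC1A4, in ways that a gene average hides. The first 30 bases of each 60-base probe are given to identify it, with the positions (hg17) from the file headers.
SLC38A2, A_23_P218079, chr12:45040892-45040951: acaaaaccacgagtctcgggttaagggaag
SLC38A2, A_24_P295963, chr12:45038977-45039036: aggttcaaaatcaagtgcctagggaaaatt
SLC7A11, A_24_P200420, chr4:139449712-139449771: tgtaatcatatctacatgcaatgttagtaa
SLC7A11, A_32_P165477, chr4:139446439-139446498: cattttgctttcctaaccattcagtcagga
SLC7A11, A_32_P42684, chr4:139444162-139444221: ttactgatactaaatgttggctacctgtga
SLC1A4, A_23_P91151, chr2:65160089-65160148: attgggctccccagccggaactggttacca
SLC1A4, A_24_P191312, chr2:65161686-65161745: acgcttatggatgtgtgtaccattgagatg
With HIPP, A_23_P218079 of SLC38A2 was higher on 5 of 5 arrays (1.24 ± 0.38) and A_24_P295963 was lower on 5 of 5 (-0.31 ± 0.17). Both probes were well above background on all arrays. Taking the brighter one, A_24_P295963, in place of the average turned the HIPP value of SLC38A2 to -0.31 (adjusted p = 0.033), so no direction is given for this gene with HIPP. In P4 arrays the averages of these probes were 0.48 and 0.28. By the brighter probe alone the P4 value did not pass (adjusted p = 0.0649). The P4 mean of both did not pass with ratios centred on each array's median (adjusted p = 0.0729) or with each treatment in a fit of its own (adjusted p = 0.157).

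The 3 probes of SLC7A11 were also all well above background. With HIPP, A_24_P200420 rose evenly, from 1.83 to 2.18, A_32_P165477 ran from 0.19 to 1.28, and A_32_P42684 ran from -2.18 to 1.20. A_32_P42684, the probe at the lowest coordinate, was below 0 on HIPP replicates 2, 4 and 5, on P4 replicate 1 and on shCtBP2 replicates 2 to 5. On the HIPP and P4 arrays among these A_23_P218079 of SLC38A2 had its 4 highest ratios, and on the shCtBP2 arrays it was low, at 0.30 to 0.50. On P4 replicate 1 the 3 probes read 2.10, 0.41 and -0.81 in the order listed. In shCtBP2 cells each SLC7A11 probe averaged between -0.50 and -0.11. The brightest, A_32_P165477, averaged 0.73 with HIPP (adjusted p = 0.00151) and 0.99 with P4 (adjusted p = 0.000399).

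For SLC1A4 the brighter probe, A_23_P91151, rose by 2.41 ± 0.56 with HIPP and 1.97 ± 0.30 with P4. The dimmer, A_24_P191312, averaged 0.48 ± 1.00 and 1.16 ± 0.34; its control signal was well above background on 2 and 3 of 5 arrays. By the brighter probe alone the SLC1A4 changes were larger (adjusted p = 3.47e-08 with HIPP and 1.44e-06 with P4). With normexp, a model-based background correction of the raw signals (offset 50), followed by loess normalisation, SLC1A4 averaged 0.82 with HIPP and 0.90 with P4, SLC7A11 0.49 with HIPP and SLC7A1 0.18 with HIPP, and each still passed.

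**Figure D2:**
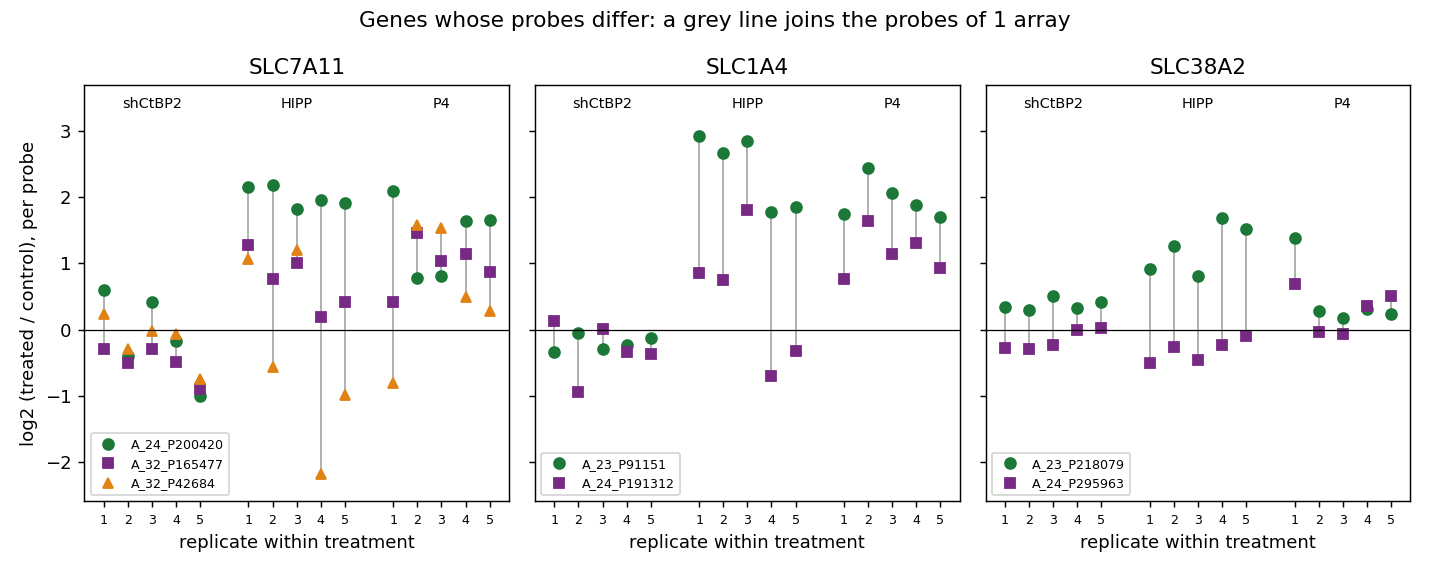
Log2 ratio of treated over control signal by probe (vertical axis) on each array (horizontal axis, 5 replicates per treatment) for SLC7A11, SLC1A4 and SLC38A2; a grey line joins the probes of 1 array. With HIPP the SLC38A2 probes lie on opposite sides of 0, and SLC7A11 probe A_32_P42684 spreads from -2.18 to 1.20 while A_24_P200420 stays between 1.83 and 2.18.

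SLC3A1, the heavy chain of the renal cystine exchanger, was the member that fell. Its log2 ratios were -1.98, -2.18, -1.5, -2.43 and -2.47 with HIPP, -0.78, -1.49, -0.65, -1.53 and -1.58 with P4, and -0.051, -0.030, -0.76, -1.09 and -1.02 in shCtBP2 cells. All 15 values were below 0, with shCtBP2 and P4 overlapping and HIPP below all shCtBP2 arrays. The gene was dim: the control signal was well above background on all arrays, at 27.9 to 81.8 units, but the treated signal on 1 of 5 HIPP and 2 of 5 P4 arrays only, at 9.02 to 33.9 units. On the others the treated signal is not measured, so the sizes of the HIPP and P4 ratios are uncertain and no fold is given. As fitted, SLC3A1 fell by 2.11 ± 0.39 with HIPP (adjusted p = 6.19e-07) and by 1.21 ± 0.45 with P4 (adjusted p = 0.000383). In shCtBP2 cells it averaged -0.59 ± 0.52 (adjusted p = 0.0577), with -0.041 on the 2 arrays of slide 3 and -0.96 on the 3 of slide 4; without shCtBP2 replicate 1 or 2 it was -0.73 (adjusted p = 0.0457 and 0.0465), past the threshold. With the replicate number as a block the same mean passed (adjusted p = 0.0176), though whether that number pairs arrays was not tested. With normexp and loess the SLC3A1 mean was -0.27 with HIPP (adjusted p = 0.0177) and -0.32 with P4 (adjusted p = 0.00909), and by the Student's test of the methods the P4 value did not pass (adjusted p = 0.117).

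SLC7A7, the light chain y+LAT1, was higher on all 15 arrays. It gave 3.15, 3.68, 2.28, 1.96 and 3.83 with P4, 3.05, 1.36, 3.21, 2.27 and 2.37 with HIPP, and 2.60, 1.63, 1.09, 2.75 and 2.03 in the knockdown. The treatments overlapped. The means were 2.98 ± 0.83 with P4 (adjusted p = 1.06e-05), 2.45 ± 0.74 with HIPP (adjusted p = 1.37e-05) and 2.02 ± 0.69 in the knockdown (adjusted p = 0.000729). The control signal of SLC7A7 was not well above background on any array, at 1.87 to 16.3 units, so the sizes of these ratios are not measured. The control was then set at each array's lowest signal that counts as above background, or at its own signal where that was higher. Against it the treated mean was 1.19-fold higher with HIPP and 1.31-fold higher with P4. These folds were taken on normexp-corrected, loess- and Aquantile-normalised signals with the offset of 50, which draws ratios towards 1, and not on the processed signals. No such fold is given for the knockdown, which did not pass on that scale. The control was below that lowest signal on 1 HIPP and 0 P4 arrays, though well above background on none. The P4 fold is thus the ratio itself on that scale. Neither fold is a firm lower bound, and without a dye swap both are open to dye bias. In the treated channel SLC7A7 was well above background on 3 shCtBP2 arrays, at 5.23 to 14.8 units over all 5, and on all HIPP and P4 arrays, at 19.6 to 58.2 units. Background-subtracted signals, which leave out arrays with a signal at or below 0 in either channel, measured SLC7A7 on 5 shCtBP2, 5 HIPP and 4 P4 arrays and gave 4.28 in the knockdown (adjusted p = 0.0175), 2.5 with HIPP (adjusted p = 0.0746) and 4.65 with P4 (adjusted p = 0.0122). With normexp and loess the values were 0.25 with HIPP (adjusted p = 0.00894), 0.39 with P4 (adjusted p = 0.000653) and 0.20 in the knockdown (adjusted p = 0.0725). With a slide term the knockdown value fitted over all slides was 1.92 (adjusted p = 0.0536).

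**Figure D3:**
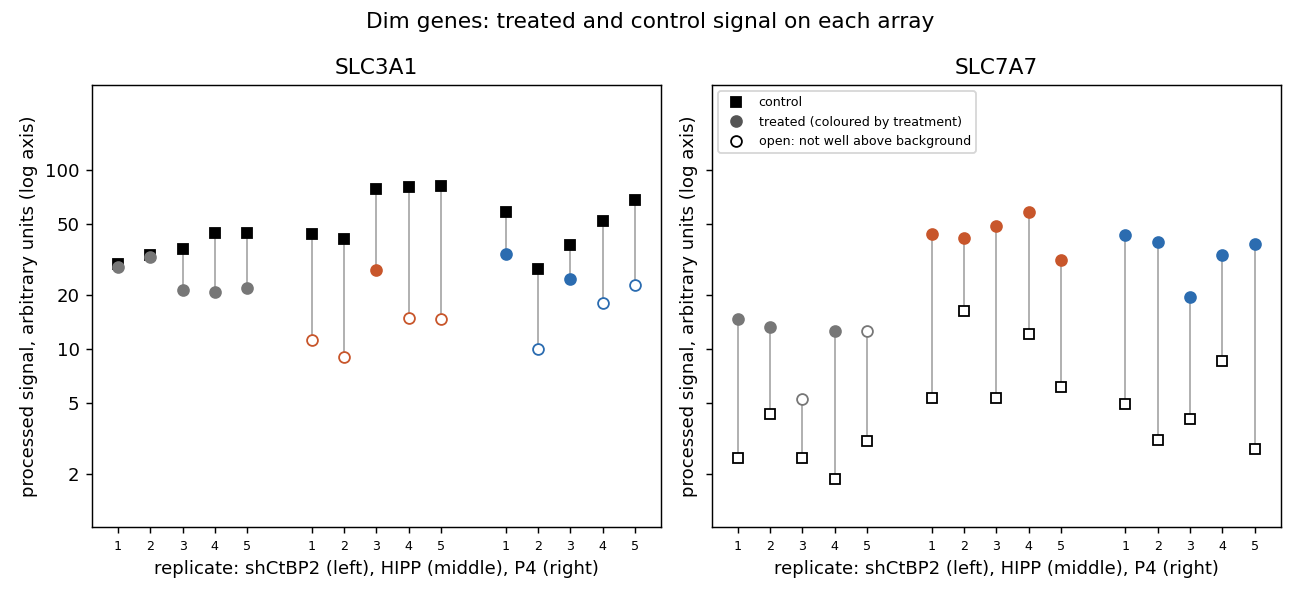
Processed signal in arbitrary units (vertical log axis) of the treated (circles) and control (squares) channel on each array (horizontal axis) for SLC3A1 and SLC7A7; open symbols were not well above background. The treated SLC3A1 signal falls to the background on most HIPP arrays, and every SLC7A7 control signal is open.

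The small molecules were then compared with each other and with the knockdown in the same fit, for all 10 genes in 3 comparisons, with p-values adjusted over 30987 genes. HIPP carries a hydroxyimino group where P4 carries a hydrazone. Of the 10 genes, 2 differed between HIPP and P4, both lower with HIPP, where 4.85% of all genes were higher and 6.10% lower with HIPP than with P4. SLC7A1 differed by -0.46 ± 0.10 (SE; adjusted p = 0.0101), with no overlap between the arrays in the mean of its probes. SLC3A1 differed by -0.91 ± 0.28 (SE; adjusted p = 0.0467); the treatments overlapped, the call was lost on leaving out any of 11 of the 15 arrays (adjusted p from 0.0281 to 0.118 over all 15), and with normexp and loess the difference was 0.046. Most treated SLC3A1 signals of both molecules were not well above background, so the size of this difference is uncertain too. On slide 2, the slide with both molecules, 3 HIPP arrays against 1 P4 array gave -0.40 for SLC7A1 and -0.31 for SLC3A1, and with a slide term neither passed (adjusted p = 0.409 and 0.734).

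For the other 8 genes the difference between HIPP and P4 did not pass; the intervals say how large it could be, except for SLC7A7, whose ratios are not measured in size (adjusted p = 0.539), and SLC38A2, whose probes disagreed. The interval ran from -0.52 to 0.10 for SLC7A5, from 0.00098 to 0.65 for SLC3A2 (adjusted p = 0.203) and from -0.14 to 0.64 for SLC1A5. It ran from -0.63 to -0.051 for SLC38A1 (adjusted p = 0.131), where background-subtracted signals gave -0.61 and passed (adjusted p = 0.0302). SLC38A2 differed by 0.086 as a mean of its probes (adjusted p = 0.863) and by -0.59 by the brighter probe (adjusted p = 0.0242). For SLC7A11 and SLC1A4 it was wider, from -0.78 to 0.41 and from -0.74 to 0.50. A difference inside these ranges is not excluded, so the genes are not shown to respond alike to both molecules.

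HIPP differed from shCtBP2 in 6 of the 10 genes (all genes: 12.6% higher, 14.1% lower), and P4 from shCtBP2 in 6 (6.24% higher, 6.24% lower). SLC7A5, SLC3A2, SLC7A11, SLC1A5 and SLC1A4 were higher with either molecule than in shCtBP2 cells. The differences were 1.30 and 1.51 for SLC7A5 (adjusted p = 1.5e-05 with HIPP and 2.29e-05 with P4), 1.60 and 1.27 for SLC3A2 (3.88e-06 and 0.000106) and 1.70 and 1.82 for SLC1A4 (0.000492 and 0.000965). The dim probe of SLC1A4 was above background on no shCtBP2 array, and by the brighter probe alone its differences were 2.63 and 2.18 (2.25e-06 and 3.84e-05). They were 1.08 and 1.26 for SLC7A11 (0.00943 and 0.00846) and 1.03 and 0.78 for SLC1A5 (0.000658 and 0.012). The 6th gene was SLC3A1 with HIPP, at a difference of -1.52 (adjusted p = 8e-04) whose size is uncertain for the same reason, and SLC7A1 with P4, higher by 0.60 (adjusted p = 0.00175). SLC7A7 did not differ from shCtBP2 past the threshold with HIPP (adjusted p = 0.504) or P4 (adjusted p = 0.177). The comparisons share the shCtBP2 arrays, so their values are not independent of each other.

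Slide and treatment were partly tied. HIPP and shCtBP2 shared slide 3, with 2 arrays each, where HIPP minus shCtBP2 was 1.43 for SLC7A5, 1.48 for SLC3A2, 0.95 for SLC1A4, 0.62 for SLC1A5, 0.32 for SLC7A11 and -2.41 for SLC3A1. With a slide term the differences of SLC7A11 and SLC1A5 between HIPP and shCtBP2 did not pass (adjusted p = 0.532 and 0.089). P4 and shCtBP2 shared no slide. With a slide term 1 of the 6 differences between P4 and shCtBP2 passed, that of SLC7A5 (1.73, adjusted p = 0.049). Of those that did not, SLC3A2 at 1.10 and SLC7A1 at 0.52 stayed near their values without it, while SLC1A4 was 0.30, SLC7A11 0.045 and SLC1A5 -0.17.

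**Figure D4:**
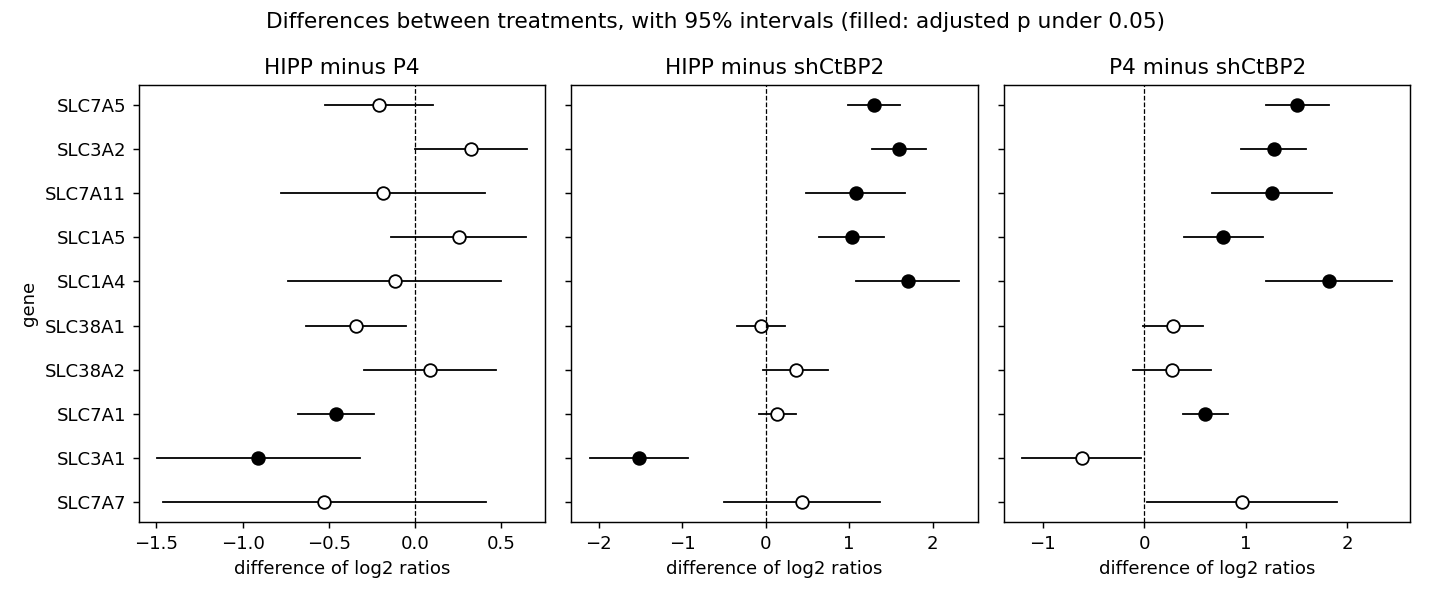
Difference of log2 ratios between treatments (horizontal axis) for the 10 genes (vertical axis), with 95% intervals; filled points passed the test at an adjusted p under 0.05. HIPP and P4 differed in SLC7A1 and SLC3A1, and both differed from shCtBP2 in SLC7A5, SLC3A2, SLC7A11, SLC1A5 and SLC1A4.

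The other amino acid carriers were counted by function, beside the shares of all genes given above (24.9% higher and 23.9% lower with HIPP, 17.1% and 14.9% with P4, 6.58% and 6.95% in shCtBP2 cells). Of 30 further plasma membrane carriers, 6 were higher and 7 lower of 28 tested with HIPP, 9 higher and 2 lower of 29 with P4, and 0 higher (2 at an unadjusted p under 0.05, 0 by the Student's test) and 2 lower of 29 in shCtBP2 cells by limma, with medians of 0.14, 0.25 and -0.0033. The HIPP counts lay near those shares of all genes, and by the Student's test 2 were higher and 4 lower with HIPP and 1 higher and 0 lower with P4. Some of these calls were dim: SLC1A2, 1 of the 2 lower in shCtBP2 cells, SLC7A8, higher with both molecules, and SLC7A9, higher with HIPP, were above background there on no array in either channel (named after their values were seen). SLC1A3, a glial-type glutamate carrier, fell by 2.60 ± 1.01 with HIPP (adjusted p = 2.35e-06) and averaged -0.47 with P4 (adjusted p = 0.195). SLC1A1, a neuronal-type glutamate carrier, fell by 1.38 ± 0.48 with HIPP (adjusted p = 0.000149). SLC38A4, a carrier of neutral amino acids, fell by 1.70 ± 0.57 with HIPP (adjusted p = 2.23e-06), with 2 of 5 arrays well above background in the treated channel. SLC43A2 (LAT4), which carries large neutral amino acids without exchange, rose by 1.57 ± 0.16 with HIPP (adjusted p = 5.77e-08) and 0.73 ± 0.24 with P4 (adjusted p = 0.000241).

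Of 17 mitochondrial, vesicular and lysosomal carriers on the arrays, 2 were higher and 2 lower of 12 tested with HIPP, 6 and 1 of 11 with P4, and 0 of 13 in shCtBP2 cells by limma (2 higher at an unadjusted p under 0.05, 1 by the Student's test). The medians were 0.28, 0.43 and 0.24. The HIPP counts lay below the shares of all genes, and by the Student's test 0 were higher and 1 lower with HIPP and 0 in either direction with P4 (7 higher and 1 lower at an unadjusted p under 0.05 by limma). SLC25A12, the mitochondrial aspartate/glutamate carrier, fell by 0.85 ± 0.13 with HIPP (adjusted p = 1.62e-05). SLC36A1, a lysosomal proton-coupled carrier, rose by 0.87 ± 0.64 with P4 (adjusted p = 0.00259). SLC32A1, at 0.78 ± 0.90 with P4 (adjusted p = 0.0309), and SLC25A18, at 0.58 ± 0.42 with HIPP (adjusted p = 0.0248), passed but were dim: SLC25A18 was above background on no array, and SLC32A1 on 2 of 5 P4 arrays in the treated channel.

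Most of the listed genes of the amino acid response outside the transporters were higher with both molecules. Of all genes 24.9% were higher and 23.9% lower with HIPP, 17.1% and 14.9% with P4, and 6.58% and 6.95% in shCtBP2 cells. Of 25 listed, 19 were higher and 0 lower of 23 tested with HIPP, 22 and 0 of 24 with P4 by limma (0 lower also at an unadjusted p under 0.05 and by the Student's test), and 7 and 2 of 21 in shCtBP2 cells, with medians of 1.49, 1.47 and 0.31. NUPR1, a stress-induced nuclear protein, rose by 2.90 ± 0.15 with HIPP (adjusted p = 2.37e-10), 2.85 ± 0.065 with P4 (adjusted p = 6.95e-10) and 0.69 ± 0.30 in shCtBP2 cells (adjusted p = 0.000414). CTH, which makes cysteine from cystathionine, rose by 2.00 ± 0.18, 2.81 ± 0.23 and 0.98 ± 0.21. DDIT4, an inhibitor of mTORC1 signalling, rose by 1.73 ± 0.29, 2.61 ± 0.26 and 1.10 ± 0.34. PPP1R15A, which restores translation by dephosphorylating eIF2α, rose by 2.28 ± 0.35 with HIPP and 1.44 ± 0.21 with P4 and averaged -0.025 ± 0.20 in shCtBP2 cells. ATF4 itself, named after its values were seen, rose by 1.60 ± 0.17, 1.51 ± 0.25 and 0.40 ± 0.26 (adjusted p = 4.88e-08, 5.8e-07 and 0.0275). The 2 lower in shCtBP2 cells, a share near that of all genes and also named after their values were seen, were the mitochondrial one-carbon enzymes MTHFD2 (-0.56, adjusted p = 0.00419) and SHMT2 (-0.34, adjusted p = 0.0239).

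Of 12 genes of the oxidative stress response, 7 were higher and 3 lower of 10 tested with HIPP, 8 and 1 of 11 with P4, and 1 and 3 of 11 in shCtBP2 cells, with medians of 0.79, 0.76 and -0.28. Of all genes 24.9% were higher and 23.9% lower with HIPP, 17.1% and 14.9% with P4, and 6.58% and 6.95% in shCtBP2 cells; by the Student's test 5 of the list were higher and 2 lower with HIPP, and 3 and 0 with P4 (1 lower at an unadjusted p under 0.05 by limma). HMOX1, the inducible haem oxygenase, rose by 4.11 ± 0.37 with HIPP, 2.45 ± 0.31 with P4 and 0.43 ± 0.16 in shCtBP2 cells (adjusted p = 2.37e-10, 5.32e-08 and 0.0473). OSGIN1, an oxidative stress-induced growth inhibitor, rose by 1.13 ± 0.38 with HIPP and 0.97 ± 0.38 with P4. ME1, the cytosolic malic enzyme, rose by 0.43 ± 0.24 with HIPP and 0.97 ± 0.071 with P4. NFE2L2, which encodes NRF2, fell by 0.94 ± 0.45 with HIPP (adjusted p = 0.000106) and by 0.49 ± 0.26 with P4 (adjusted p = 0.0211).

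**Figure D5:**
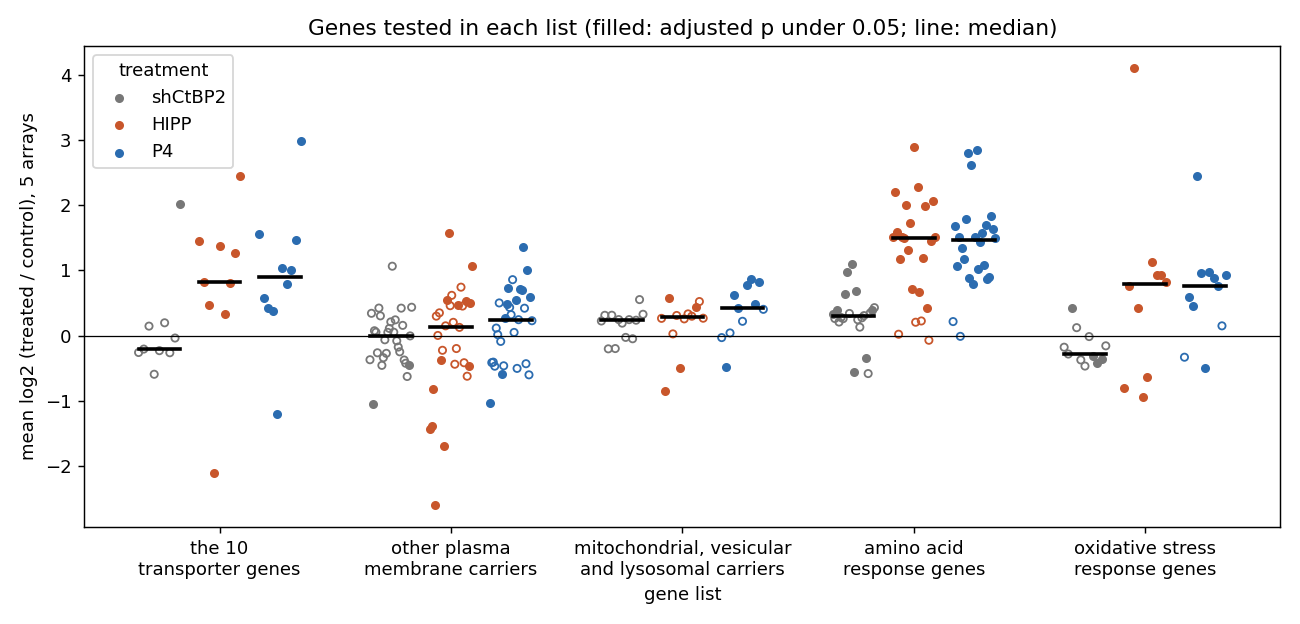
Mean log2 ratio over 5 arrays (vertical axis) of each gene tested in 5 lists (horizontal axis), coloured by treatment; filled points passed at an adjusted p under 0.05 and lines are medians. The amino acid response genes have medians of 1.49 with HIPP and 1.47 with P4, and of 0.31 in shCtBP2 cells.

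Over the 15 arrays the transporter genes followed each other to different degrees, given here as a description since all points share treatments and slides. Pearson's r of SLC3A2 was 0.89 with its partner SLC7A5, 0.84 with its partner SLC7A11, 0.92 with SLC1A5 and 0.91 with SLC1A4. SLC38A2 gave 0.021 with SLC7A11, and SLC3A1 ran against SLC3A2, at -0.72. Among 12546 genes with a current symbol and signal above background on all arrays, the most like SLC7A5 were RBCK1 (0.98), KRT81, ABCC3, FOSL2 and SLC48A1 (0.97 each). Those most like SLC3A2 were FLNC and ALG3 (0.98 each) and RCN1, GFPT1 and SRXN1 (0.97 each). Those most like SLC7A11 were TRIM16 and MGST1 (0.94 each), SLC1A4 (0.93), and PFKFB3 and SP1, both at 0.92 or above. A gene can be alike in order without being alike in size: FLNC averaged 0.25 with HIPP, -0.26 with P4 and -2.18 in shCtBP2 cells.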

How the data were processed

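RNA of treated MDA-MB-231 cells (Cy5) and of control cells (Cy3; untreated by the labels, scrambled shRNA for shCtBP2 cells by the paper) was hybridised together on 15 Agilent 4x44K arrays, 5 per treatment. The authors scanned the arrays with Feature Extraction 9.5, which subtracted the background and normalised the dyes; the deposited intensity columns used here are the processed signals of both channels, and the series table holds the authors' log10 ratios of the same spots, equal to the scanner's ratios within 0.00499, used here as an alternative. Positions are hg17, per the file headers. Spots called non-uniform or outlying were left out, spots were averaged by probe and probes by gene. Of 41000 probes, 23552 were named through an accession, 2317 through a symbol and 962 through a synonym in RefSeq's gene table, and 14169 kept the name in the file. Each distinct name was counted as a gene, so shares of all genes include names that are not current symbols.

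Log2 ratios were tested against 0 with limma 3.58.1 in R 4.3.3, all 15 arrays in 1 fit, and differences between treatments as contrasts in it. P-values were adjusted by Benjamini and Hochberg over the genes measured on at least 3 arrays, without the lowest 11% by interquartile range of a treatment's 10 channel signals. The fit was tested on simulated data. The members and lists were chosen with earlier results of these data known. All 10 members, up to 4 genes per list with the largest change past the threshold in 1 direction on all arrays, and the 5 genes most like SLC7A5, SLC3A2 and SLC7A11 are named. The number of arrays limits the precision. Replicate numbers came from the titles. Over all genes, deviations from the treatment means of P4 and shCtBP2 arrays of the same number correlated at 0.139 to 0.352. Those of HIPP and shCtBP2 arrays correlated at 0.0688 to 0.306. Arrays of different numbers were not compared, so whether the numbers pair the arrays was not tested. The fit with the replicate number as a block changed no call between P4 and shCtBP2 and 1 call against control, SLC3A1 in shCtBP2 cells.

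P4 replicates 1 to 4 lay on slide 1, scanned on another day; slide 2 held P4 replicate 5 and HIPP replicates 1 to 3, slide 3 HIPP replicates 4 and 5 and shCtBP2 replicates 1 and 2, and slide 4 shCtBP2 replicates 3 to 5. Alternatives were the background correction, centring, slide as a block, the replicate block, the Student's test, separate fits, filters, the brightest probe, the fold threshold, the series table and leaving out each array. The study's own gene calls were not used.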

Additional observations from a re-analysis of the deposited data

Results flagged for a closer look

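The SLC3A2 ratio of P4 replicate 1, 0.63, lay far below those of the other 4 P4 arrays, by a gap of 0.741 of the range; about 1 in 20 groups of 5 would be flagged so by chance. The low value came from A_23_P75811 (0.21), while the brighter A_23_P87216 read 1.05 there. Between HIPP and P4, SLC7A1 differed by -0.46 and SLC3A1 by -0.91 on the log2 scale. HIPP minus shCtBP2 was 1.30 for SLC7A5, 1.60 for SLC3A2, 1.08 for SLC7A11, 1.03 for SLC1A5, 1.70 for SLC1A4 and -1.52 for SLC3A1. P4 minus shCtBP2 was 1.51 for SLC7A5, 1.27 for SLC3A2, 1.26 for SLC7A11, 0.78 for SLC1A5, 1.82 for SLC1A4 and 0.60 for SLC7A1. Each of these differences passed the test of the difference itself.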

How the results depend on the processing

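Of 570 values of single genes under alternatives other than leaving out an array, 513 kept their direction and their side of the threshold, 33 lost the call, 5 gained it and 19 changed sign. Of 900 with 1 array left out, 875 kept both, 17 lost the call, 2 gained it and 6 changed sign. A gene that passed in the main fit but was left untested by a filter is counted among those that lost the call. The causes were not tested. With normexp and loess, 0 transporter genes were higher in shCtBP2 cells, 0 past the threshold, with HIPP 0 were past it in either direction, with P4 3 were higher and 0 lower past it, 1 differed between HIPP and P4, and SLC3A1 for HIPP minus P4 turned to 0.046; of the other lists 7 were lower with HIPP. Background-subtracted signals gave 5 higher with HIPP, 1 past the threshold, -0.019 for SLC38A1 with HIPP, a gained call of -0.61 for SLC38A1 and -0.11 for SLC38A2 in HIPP minus P4 and -1.78 for SLC7A7 in HIPP minus shCtBP2. There the filter on interquartile range left SLC7A5 and SLC38A2 untested with HIPP, and SLC38A1 and SLC7A1 with P4. Among all genes past the threshold, that setting, which changed signals and centring together, moved the share that was higher from 48.7 to 41.6% with HIPP and from 50.7 to 39.8% with P4; centring the processed signals alone gave 41.6% and 44.8%, and 41.5 rather than 50.9% in shCtBP2 cells.

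With slide as a fixed block, a value against control is fitted over all 4 slides, also those with no array of that treatment. It can thus lie outside the values of the arrays. In shCtBP2 cells 0 genes were then higher, 0 past the threshold, and SLC7A11 turned to 0.35, SLC1A5 to 0.22, SLC1A4 to 0.46, SLC38A2 to -0.16 and SLC3A1 to 0.13. With P4, 4 were higher, 3 past the threshold. Of the differences, 0 remained between HIPP and P4 and 1 between P4 and shCtBP2. HIPP minus P4 turned to 0.28 for SLC7A11, 0.65 for SLC1A4 and -0.074 for SLC38A2, HIPP minus shCtBP2 to 0.0097 for SLC38A1, and P4 minus shCtBP2 to -0.17 for SLC1A5. Of the other lists 2 were lower in shCtBP2 cells, and 25 higher and 1 lower with P4. Slide as a random block (correlation -0.0578), the replicate block and the limit to genes well above background each gave 1 gene lower in shCtBP2 cells, SLC3A1, 1 past the threshold. HIPP and P4 arrays of the same number correlated at -0.028 to 0.472. Under the replicate block 7 genes of the other lists rather than 4 were lower with P4.

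The Student's test gave 4 transporter genes higher with HIPP, and with P4 0 lower, 0 past the threshold; of the other lists, 4 were lower in shCtBP2 cells, 7 lower with HIPP, and 23 higher and 0 lower with P4. Separate fits gave 13 higher in shCtBP2 cells and 2 lower with P4 among the other lists. The brightest probe gave 2 lower with HIPP, and turned SLC38A2 to -0.16 in shCtBP2 cells, -0.31 with HIPP, -0.59 for HIPP minus P4 (adjusted p = 0.0242) and -0.15 for HIPP minus shCtBP2, and SLC1A4 to 0.44 for HIPP minus P4. A 1.5-fold threshold gave 6 higher with HIPP, and the authors' log10 ratios gave 2 higher in shCtBP2 cells.

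Leaving out 1 array gave 0 to 1 transporter genes lower in shCtBP2 cells, 0 to 1 past the threshold, 1 to 3 higher past the threshold with HIPP (1 without HIPP replicate 3) and 1 to 2 different between HIPP and P4; of the other lists 3 to 11 were higher and 3 to 8 lower in shCtBP2 cells, and 1 to 6 lower with P4. Signs changed for SLC7A5 in shCtBP2 cells (-0.0854 to 0.0093), SLC38A1 in HIPP minus shCtBP2 (-0.13 to 0.00196), and in HIPP minus P4 for SLC7A11 (-0.36 to 0.021) and SLC1A4 (-0.34 to 0.11).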
